A study of Homo sapiens with 20 samples.

Results

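Aldo-keto reductases are a superfamily of barrel-shaped enzymes that use NADPH to turn aldehydes and ketones into alcohols. Their substrates include sugars, lipid aldehydes, steroids and prostaglandins. In many human cells some of them, AKR1B10 and the AKR1C enzymes above all, are induced with other detoxifying enzymes by the transcription factor NRF2, which binds antioxidant response elements with a small MAF partner. The genes followed here, chosen by name, are AKR1A1, AKR1B1, AKR1B10, AKR1C1, AKR1C2, AKR1C3 and AKR7A2, which are 7 of the 54261 rows of the gene count table. The list was drawn up with results of these data known, and AKR1B1 had been selected on its difference in level between coculture and control, so the members' levels and fold changes are given as a description with no p-value. Of the 7, 6 passed the count filter of the test and AKR1C2 did not.

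The study measured gene expression by RNA-seq in TPC-1, an established line from a human papillary thyroid carcinoma that carries a rearranged RET gene. Cells had been kept for 48 h together with PMN-MDSCs, the polymorphonuclear kind of myeloid-derived suppressor cells that restrain T cells, in 6 libraries labelled coculture, or without them in 4 libraries labelled untreated (controls). The labels do not say how the cells shared the culture, where the PMN-MDSCs came from or whether they were removed before RNA extraction. They also do not say whether replicate libraries had their own cultures, so the errors measure only the spread between these libraries, which may be technical.

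Totals were 40237801 to 48197608 counts per library, and levels are given as CPM, counts scaled to a common library size after TMM normalization. The thyroid transcription factor PAX8 was at 496 to 522 CPM in controls. It was at 769 and 749 CPM in coculture 1 and 2 and 507 to 583 in the other coculture libraries. The epithelial keratin KRT18 was at 306 to 393 CPM in controls. In coculture 1 and 2 KRT18 was at 281 and 292 CPM, and in the other coculture libraries at 369 to 430. NKX2-1, CDH1 and TSHR had 0 counts in every control. No pair of libraries within a group agreed within sampling noise, so each library counted as 1 sample. The smallest chi-square was 6.86 per degree of freedom, between controls 3 and 4. Coculture 1 and 2, 3 and 4, and 5 and 6 were the closest pairs of their group, at 12.3, 13.5 and 12.6. Controls 1 and 2 were at 20.1. Other pairs were at 18.9 to 142 in coculture and 30.1 to 61.5 in controls. Whether the close pairs shared a culture is not known. If they did, the SDs and errors rest on fewer independent samples than the n given. On the first principal component of all tested genes, which held 39.3% of the variance, the scores of coculture 1 and 2 were 66.1 and 60.6, while all 8 others scored from -31.8 to -0.91. Values of the members are therefore also given without coculture 1 and 2 where they changed.

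The promoter windows set the members apart before any level is considered. The 250 bases before the RefSeq start (GRCh38.p14, written 5′ to 3′ on the gene's strand) are shown for AKR1B1, the member that differed most in level, for the paralogs AKR1C1 and AKR1C2, whose counts are hard to separate, and for AKR7A2, the 1 of 6 members with a window in which the core of the element that NRF2 binds was matched. AKR1B10 has no window here. The only window of AKR1C2 lies inside the span counted for that gene, chr10:4987775-5018033 on the minus strand. It therefore precedes a start other than the 5′ end of the counted gene. Capitals mark CCAAT or its reverse complement ATTGG and TATTTAA in the first 3, and TGACNNNGC or its reverse complement, the core of the antioxidant response element, in AKR7A2.
AKR1B1, chr7:134459101-134459350, minus strand: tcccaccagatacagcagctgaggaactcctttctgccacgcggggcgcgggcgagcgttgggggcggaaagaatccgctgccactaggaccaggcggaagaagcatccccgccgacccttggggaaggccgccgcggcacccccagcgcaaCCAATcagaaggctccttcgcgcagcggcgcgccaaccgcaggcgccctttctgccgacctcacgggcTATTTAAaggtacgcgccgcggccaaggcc
AKR1C1, chr10:4963165-4963414, plus strand: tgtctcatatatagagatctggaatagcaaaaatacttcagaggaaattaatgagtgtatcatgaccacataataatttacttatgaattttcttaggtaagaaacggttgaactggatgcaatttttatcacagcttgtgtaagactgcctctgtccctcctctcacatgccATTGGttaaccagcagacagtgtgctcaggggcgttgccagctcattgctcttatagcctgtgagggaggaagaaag
AKR1C2, chr10:5003858-5004107, minus strand: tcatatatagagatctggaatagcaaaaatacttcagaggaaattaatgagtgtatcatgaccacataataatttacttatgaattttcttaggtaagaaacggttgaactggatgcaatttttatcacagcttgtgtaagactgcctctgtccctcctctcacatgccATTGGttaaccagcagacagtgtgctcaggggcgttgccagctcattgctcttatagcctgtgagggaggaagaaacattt
AKR7A2, chr1:19312147-19312396, minus strand: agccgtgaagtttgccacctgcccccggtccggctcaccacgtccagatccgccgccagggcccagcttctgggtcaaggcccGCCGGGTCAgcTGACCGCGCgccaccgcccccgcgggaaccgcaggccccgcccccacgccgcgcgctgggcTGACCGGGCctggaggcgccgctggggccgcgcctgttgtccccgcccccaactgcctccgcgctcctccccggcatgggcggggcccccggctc

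The AKR1C1 and AKR1C2 windows were nearly the same sequence. Set side by side with an offset of 4 bases and no gap, they were identical at 245 of 246 positions (99.6%), whereas AKR1C1 and AKR1C3 at their best offset were identical at 132 of 246 (53.7%). GC content differed widely between members, at 78.8% for AKR7A2 and 68% for AKR1B1 against 40.8% for AKR1C1 and 32% for AKR1C3. Searched on both strands from 250 bases before the start to 50 after it, TGACNNNGC was found in 1 of the 6 member windows, in AKR7A2 with 3 matches, and in 13.3% of all 35116 windows. TGANTCA, the AP-1 motif, and TGGAAA, the core that NFAT factors read, were found in 0 of the 6, against 7.71% and 20.7% of all windows. CCAAT was found in the windows of AKR1B1, AKR1C1, AKR1C2 and AKR1C3 and in 34.6% of all windows, and TATTTAA, 30 bases before the start, in that of AKR1B1 and in 4.52% of all. These matches describe letters in short windows and say nothing of whether a factor was bound.

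AKR1B1, the aldose reductase that opens the polyol pathway by reducing glucose to sorbitol and that also reduces lipid aldehydes and makes prostaglandin F, was the member with the highest level and the widest difference. In the deposited table it spans chr7:134442352-134459136, minus strand. Controls 1 to 4 held 644, 839, 562 and 606 CPM, and the coculture libraries ranged from 1309 CPM in coculture 3 through a median of 1898 to 2551 in coculture 1. Every coculture library lay above every control, and even the lowest, coculture 3, was at 1.98 times the control mean. The means were 1970 ± 456 CPM (SD, n = 6) and 663 ± 122 (n = 4), a log2 fold change of 1.57 ± 0.18 (SE), or 2.97-fold.

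AKR1B1 had the largest gain in CPM of the tested genes, in the contrast on which it had been selected. The difference of its means, 1307 CPM and not scaled for transcript length, ranked 1 among the 15629 tested genes, while its log2 fold change ranked 194. In raw reads it took 0.0562% to 0.0839% of a control library and 0.133% to 0.258% of a coculture library. Per kilobase of transcript its control level ranked 122 and its coculture level 35 among the same genes. It was also the 1 member that the edgeR fit over all genes placed past the threshold, where 1.14% of tested genes were called higher and 0.186% lower (1.32% in all). It was the 1 member whose groups did not overlap, against 2.45% of tested genes higher and 1.17% lower without overlap (3.62% in all). As AKR1B1 was listed for this contrast, nothing is read from those ranks and shares. Without coculture 1 and 2 the log2 fold change was 1.45, and the other 4 coculture libraries held 1826 ± 453 CPM.

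**Figure D1:**
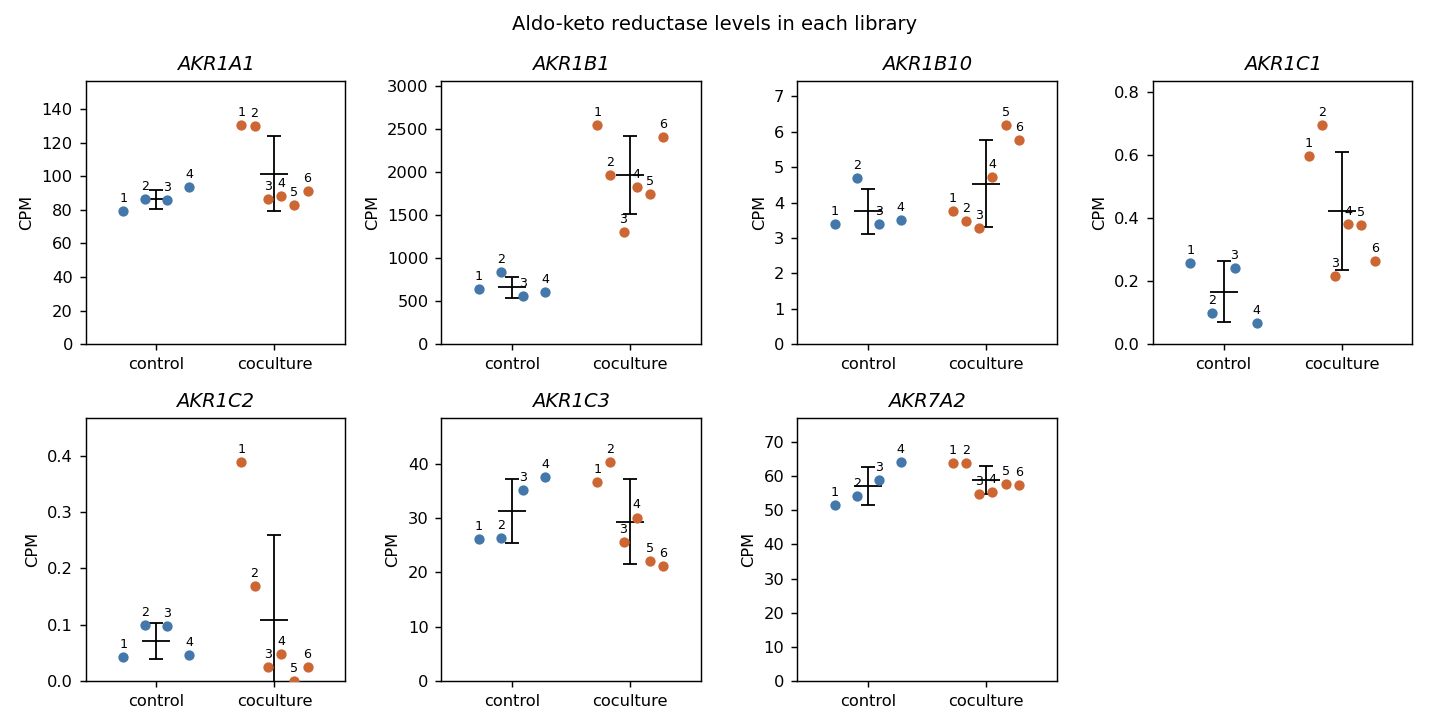
Levels of the 7 aldo-keto reductases in each library, in CPM on a linear axis from 0, with controls in blue and coculture in orange. Digits give the library number, and bars the mean and SD. AKR1B1 was at 1309 CPM or more in every coculture library and at most 839 in controls, whereas the groups overlapped for the other 6 genes.

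Leukocyte RNA was also higher in the coculture libraries, and its values are set beside those of AKR1B1. Of 20 leukocyte and myeloid marker genes, 13 were tested and 12 were higher in coculture with edgeR and 0 lower, where 1.14% of all tested genes were higher and 0.186% lower. Several of the 13 passed the count filter only through the coculture libraries. In controls CD53 and TYROBP had 0 counts and CYBB at most 7. Such genes could hardly be called lower, so these calls were largely fixed by the filter, and nothing is read from their number. The 20 together summed to 52.8 to 80.1 CPM in coculture and 14.8 to 15.4 in controls. Most of the control sum was LCP1 (5.81 to 6.77 CPM) and CORO1A (5.92 to 7.35), so the sum does not measure leukocyte RNA alone. CORO1A was at 14.4 and 12.2 CPM in coculture 1 and 2 and at 4.44 to 8.53 in the other coculture libraries. LYZ, the lysozyme of myeloid cells, was the marker with the smallest adjusted p, at 13.9 ± 2.17 CPM in coculture. Of the listed genes that neutrophils express, S100A9 had 235 counts over the coculture libraries and 1 over the controls, S100A8 had 53 and 0, CSF3R 11 and 0 and MPO 10 and 0, while FCGR3B, CXCR2 and ELANE had 0 counts in all 10 libraries. Of other myeloid genes listed, CD14 had 741 and 15 counts and CYBB 1463 and 13. MRC1 had 8 to 38 counts in each coculture library and 0 in each control. Which leukocytes the RNA came from was not tested. Coculture 1 and 6 were highest in both AKR1B1 (2551 and 2412 CPM) and the marker sum (79.4 and 80.1), but coculture 2, lowest in the marker sum of its group at 52.8, held more AKR1B1 (1964 CPM) than coculture 3 (1309), whose markers summed to 63.4. The part of other cells in the level of AKR1B1 was not tested, and in bulk libraries a change in cell numbers and a change in RNA per cell cannot be told apart.

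AKR1B10, a close relative of AKR1B1 that reduces retinal and lipid aldehydes and lies beside it (chr7:134527592-134541414, plus strand), was low in all libraries. Controls 1 to 4 held 3.40, 4.70, 3.40 and 3.50 CPM, and coculture ranged from 3.29 through a median of 4.23 to 6.19 CPM. Coculture 4, 5 and 6 were at or above the highest control, coculture 1 and 2 lay within the range of the controls, and coculture 3 lay just below it. The means were 4.53 ± 1.23 and 3.75 ± 0.634 CPM, with a log2 fold change of 0.27 ± 0.21, which was not past the threshold. Without coculture 1 and 2 it was 0.40, with 4.99 ± 1.29 CPM in the other coculture libraries, and also not past the threshold. AKR1B10 counts equalled 0.527% to 0.604% of the AKR1B1 counts in controls and 0.147% to 0.354% in coculture, so they did not keep a fixed ratio to those of its paralog.

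Beside AKR1B10, 2 tested genes lay within 300 kb of AKR1B1, and neither was called by edgeR. SLC35B4, a nucleotide sugar transporter, was at 36.4 ± 3.62 CPM in coculture against 42.3 in controls (log2 fold change -0.22 ± 0.10, edgeR adjusted p = 0.533), and BPGM, the bisphosphoglycerate mutase of red cells, at 10.7 ± 0.601 against 10.5 (0.02 ± 0.10, adjusted p = 0.973). AKR1B15, the remaining member of this gene cluster, had at most 7 counts in any library.

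AKR1A1, the broad aldehyde reductase of most tissues (chr1:45550779-45570051, plus strand), was set apart in coculture 1 and 2 only. Those libraries held 131 and 130 CPM, the other 4 coculture libraries 82.9 to 91.2, and controls 1 to 4 held 79.5, 86.5, 85.8 and 93.5. The same 2 libraries lay apart on the first principal component, with which the log2 level of AKR1A1 had an r of 0.90 over 10 libraries. With them the log2 fold change was 0.23 ± 0.14, and without them it was 0.0021, with 87.2 ± 3.44 CPM in the 4 remaining coculture libraries against 86.3 ± 5.73 in controls.

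AKR7A2, which reduces succinic semialdehyde and the dialdehyde of aflatoxin (chr1:19302708-19312146, minus strand), varied least among the coculture libraries. Controls 1 to 4 held 51.5, 54.3, 58.8 and 64.3 CPM, and coculture ranged from 54.6 through 57.5 to 64.0. Its coefficient of variation was 9.77% in controls and 6.95% in coculture, the lowest of the 6 tested members in coculture, while that of AKR1B1 was 18.4% and 23.1%. The log2 fold change was 0.04 ± 0.09, and -0.04 without coculture 1 and 2. Coculture 1 and 2 were again the highest of their group, at 64.0 and 63.8 CPM, but no higher than control 4.

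The 3 AKR1C genes lie together on chromosome 10 and encode ketosteroid reductases. AKR1C1 (chr10:4963262-4979967, plus strand) inactivates progesterone. AKR1C2 (chr10:4987775-5018033, minus strand) inactivates dihydrotestosterone. AKR1C3 (chr10:5048766-5107686, plus strand) makes testosterone from androstenedione and reduces prostaglandin D. Nearly all reads counted in these genes were assigned to 1 of them, and AKR1C3 held 97.4% to 99.7% of the summed counts in every library. How reads that fit several genes were treated is not given. If they were dropped, the counts of AKR1C1 and AKR1C2 may be too low, and the share of AKR1C3 too high.

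AKR1C3 levels varied within both groups and overlapped between them. Controls 1 to 4 held 26.2, 26.3, 35.2 and 37.5 CPM, and coculture ranged from 21.2 in coculture 6 through a median of 27.8 to 40.4 in coculture 2. The means were 29.3 ± 7.87 and 31.3 ± 5.90 CPM, with a log2 fold change of -0.09 ± 0.19. Coculture 5 and 6 were the lowest of all libraries, and coculture 1 and 2 were the highest of their group. Without those 2 the log2 fold change was -0.35, with 24.7 ± 4.05 CPM in coculture, and it was not past the threshold with or without them.

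AKR1C1 had few counts, at 3 to 33 per library. Controls 1 to 4 held 0.256, 0.0989, 0.243 and 0.0678 CPM, and coculture ranged from 0.215 through 0.380 to 0.695. Coculture 1 and 2, at 0.596 and 0.695 CPM, were the highest, and coculture 3 lay among the controls. The log2 fold change of 1.33 ± 0.48 was not past the threshold and was 0.86 without coculture 1 and 2.

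AKR1C2 had too few counts for the test. Its controls held 2, 4, 4 and 2 counts and coculture 3 to 6 held 1, 2, 0 and 1, which is at or close to the floor of 3 counts, while coculture 1 and 2 held 17 and 8. The group means were 0.109 ± 0.150 CPM in coculture and 0.0709 ± 0.0312 in controls. Their difference, coculture minus control, was 0.0380 CPM with all libraries and -0.0474 without coculture 1 and 2. Because the 2 genes are near copies, the split of reads between AKR1C1 and AKR1C2 is uncertain. The sum over the 3 AKR1C genes does not depend on that split, though it would miss any reads dropped for fitting several genes. This sum was 29.8 ± 8.15 CPM in coculture and 31.5 ± 5.87 in controls. The difference of the sum, coculture minus control, was -1.68 CPM with all libraries and -6.71 without coculture 1 and 2. It ran from -3.95 (without coculture 2) to 0.31 (without control 4) on leaving out 1 library, so its sign is not settled.

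**Figure D2:**
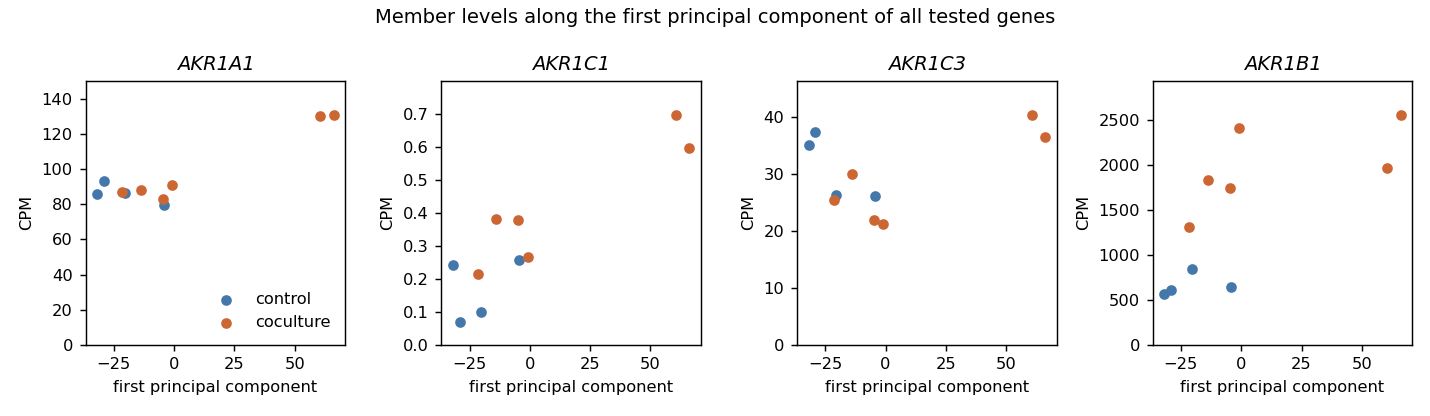
Levels of 4 members in CPM (vertical axes from 0) against the first principal component of all tested genes (horizontal axes, sign arbitrary), with each point a library, controls in blue and coculture in orange. The 2 coculture libraries above 60 were the highest for AKR1A1 and AKR1C1, whereas AKR1B1 was above every control in all 6 coculture libraries.

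Between members, levels are comparable only per kilobase of transcript. On that scale AKR1B1 stood at 470.0 CPM per kb in controls, 8.60 times AKR1A1 (54.6), 18.4 times AKR1C3 (25.6), 21.5 times AKR7A2 (21.8) and 221 times AKR1B10 (2.12). AKR1C3 at 21.4 to 30.6 and AKR7A2 at 19.7 to 24.5 CPM per kb overlapped in controls, so these neighbours in the order did not differ beyond their spread, and the other neighbours did not overlap, except AKR1C1 (0.0214 to 0.0808) and AKR1C2 (0.0118 to 0.0274). In coculture AKR1B1 stood at 21.7 times AKR1A1 and 62.2 times AKR7A2. The order of AKR1B1, AKR1A1, the pair AKR1C3 and AKR7A2, AKR1B10, AKR1C1 and AKR1C2 by mean was otherwise that of the controls, with AKR1C3 (23.9) and AKR7A2 (22.4) again overlapping.

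The members did not move as one group. Over 10 libraries the 15 pairs of tested members had a median r of 0.25 in log2 CPM, and 0.0746 over the 8 libraries without coculture 1 and 2. AKR1A1 and AKR7A2 had an r of 0.77 with all libraries and 0.72 without those 2. AKR1B1 and AKR1B10 had 0.48 and 0.76, AKR1B1 and AKR1C3 -0.17 and -0.72, and AKR1B10 and AKR1C3 -0.68 and -0.67. AKR1A1 and AKR1C1 changed sign, from 0.59 to -0.48. The points share library and depth, and these values are descriptive.

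**Figure D3:**
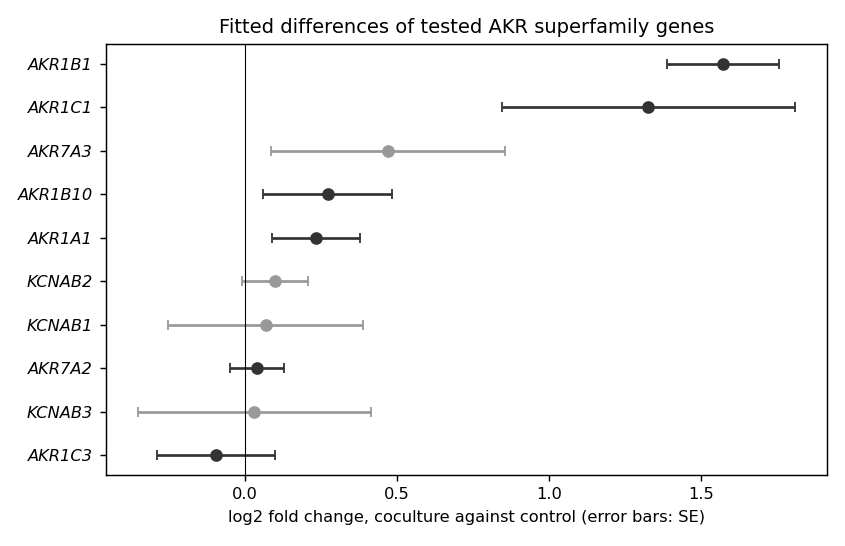
Log2 fold changes of coculture against control with standard errors for the 10 tested genes of the superfamily, members in black and other genes in grey. AKR1B1 at 1.57 and AKR1C1 at 1.33 lie apart from the other 8, which lie between -0.09 and 0.47, and the error bar of AKR1C1 (0.48) is the widest.

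No other gene of the superfamily was called. Beside the 7 members the table had 21 further AKR1 and AKR7 rows, pseudogenes included, of which 11 had 0 counts in all libraries, no row had more than 28 counts in a library, and 1 was tested. That gene was AKR7A3, a paralog of AKR7A2, at 0.357 ± 0.128 CPM in coculture against 0.258 in controls (log2 fold change 0.47 ± 0.38, edgeR adjusted p = 0.739). The more distant KCNAB genes encode beta subunits of voltage-gated potassium channels with the same fold. KCNAB2 was at 22.1 ± 2.80 against 20.7 CPM (0.10 ± 0.11), and KCNAB1 and KCNAB3, both under 1 CPM, had 0.07 ± 0.32 and 0.03 ± 0.38. Of the 13 other superfamily genes listed, 4 were tested and edgeR called 0 (0 at an unadjusted p under 0.05, and 0 with DESeq2), with a median log2 fold change of 0.08 against 0.0082 for all tested genes, of which 1.32% were called in either direction.

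No gene on the list of those that NRF2 is known to induce was called. Of 30 listed, 27 were tested, and edgeR called 0 (2 at an unadjusted p under 0.05, 0 with DESeq2, against 1.32% of all tested genes called). Their fold changes were negative for 22 and positive for 5, with a median of -0.10 against 0.0082 for all tested genes. These signs use all libraries and were not tallied without coculture 1 and 2, where edgeR also called 0. For some genes counted as negative the coculture median was above that of controls, as for TXNRD1 (625 against 596 CPM). For others it was below, as for NQO1 (318 against 388). NQO1, the quinone reductase often used as a marker of NRF2, was at 297 ± 47.2 CPM in coculture and 374 ± 59.0 in controls (log2 fold change -0.33 ± 0.14, edgeR adjusted p = 0.431). HMOX1, the heme oxygenase, was at 406 ± 135 against 624 ± 313 (-0.62 ± 0.33), FTH1, the ferritin heavy chain, at 3956 ± 365 against 5079 ± 1058 (-0.36 ± 0.13), and TKT, a transketolase, at 779 ± 43.6 against 857 (-0.14 ± 0.08). The groups overlapped for each of these 4 genes.

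Among 9 regulators of the NRF2 pathway, 1 rose, 0 fell and 8 were not called, against 1.32% of all tested genes called, with a median of 0.08. MAFF, a small MAF protein that can pair with NRF2, rose from 36.8 ± 4.41 to 67.7 ± 6.61 CPM (log2 fold change 0.88 ± 0.11, edgeR adjusted p = 0.000887), with 59.9 CPM in the lowest coculture library and 42.6 in the highest control. Its relative MAFK was at 45.7 ± 2.25 against 36.8 (0.31 ± 0.08, adjusted p = 0.109), and BACH1, which competes with NRF2 for its sites, at 19.8 ± 4.38 against 15.0 (0.40 ± 0.20). KEAP1, which marks NRF2 for destruction, was at 174 ± 21.2 against 189 (-0.12 ± 0.10). The transcript of NRF2 itself, NFE2L2, was at 67.3 ± 8.78 CPM against 63.4 ± 4.29 (0.08 ± 0.11).

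No tested gene of the polyol and osmolyte list was called. SORD, the dehydrogenase that turns the sorbitol made by AKR1B1 into fructose, was at 101 ± 13.3 CPM in coculture and 105 ± 7.53 in controls (log2 fold change -0.05 ± 0.11, edgeR adjusted p = 0.965). NFAT5, the factor that induces AKR1B1 under osmotic stress, was at 31.9 ± 5.58 against 41.8 (-0.39 ± 0.19), its target SLC5A3, a myo-inositol transporter, at 5.79 ± 1.04 against 7.37 (-0.35 ± 0.22), the chaperone HSPA4L at 41.1 ± 8.98 against 52.1 (-0.34 ± 0.17) and HK1, a hexokinase, at 462 ± 32.9 against 437 (0.08 ± 0.07). Of 13 polyol and osmolyte genes listed, 11 were tested and edgeR called 0 (0 at an unadjusted p under 0.05, 0 with DESeq2), with a median of -0.06. Of all tested genes, edgeR called 1.32%, so 0 calls among 11 is near that share. The 2 untested genes include SLC6A12, a betaine transporter named after its values were seen, with 40 counts over the coculture libraries and 5 over the controls and no overlap of the groups, at 0.0505 to 0.229 CPM against 0 to 0.0494.

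Other enzymes that clear aldehydes and carbonyls gave no calls either. Of 28 listed, 24 were tested and edgeR called 0 (3 at an unadjusted p under 0.05, 0 with DESeq2), where 1.32% of all tested genes were called and 1509 of 15629 had an unadjusted p under 0.05. Fold changes were positive for 20 and negative for 4, with a median of 0.12. These signs use all libraries. For some genes counted as positive the coculture median was below that of controls, as for MGST3 (67.7 against 71.9 CPM) and ALDH3B1 (8.48 against 9.93). For others it was above, as for ALDH2 (137 against 111). ALDH1A3, a retinal dehydrogenase, was at 189 ± 61.4 CPM against 123 ± 14.6 (log2 fold change 0.61 ± 0.21, edgeR adjusted p = 0.301). ALDH2, the mitochondrial aldehyde dehydrogenase, was at 145 ± 25.3 against 110.1 (0.40 ± 0.13), DHRS7 at 38.1 ± 8.92 against 29.5 (0.37 ± 0.16) and CBR4 at 11.1 ± 2.64 against 8.99 (0.31 ± 0.18).

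Enzymes that share steroids, retinoids and prostaglandins with AKR1B1 and the AKR1C genes had 0 calls with edgeR among 27 tested of 34 listed (4 at an unadjusted p under 0.05, and 3 calls with DESeq2), with a median of 0.16. Of all 15629 tested genes, edgeR called 1.32%, and 1509 had an unadjusted p under 0.05. DESeq2 called 333 of all genes higher and 106 lower. The widest difference was that of PTGES, the inducible prostaglandin E synthase, at 0.763 to 11.1 CPM in coculture and 0.0970 to 0.513 in controls (log2 fold change 3.85 ± 0.89, edgeR adjusted p = 0.063). Its adjusted p was 0.0201 without coculture 1 and 2 (log2 fold change 2.31), 0.0313 without coculture 3 and 0.000649 with DESeq2, so its call depended on the setting. DHRS9, a retinol dehydrogenase that macrophages express, was at 0.376 ± 0.225 CPM against 0.0497 (2.81 ± 0.79, adjusted p = 0.159). HSD11B1, which regenerates cortisol, was at 2.40 ± 1.21 against 0.961 ± 0.295 (1.32 ± 0.38, adjusted p = 0.168). With DESeq2 the adjusted p was 0.0248 for DHRS9 and 0.0212 for HSD11B1. PTGS2, the inducible cyclooxygenase that supplies the prostaglandin F synthase activity of AKR1B1, was at 5.38 ± 1.40 against 3.23 ± 1.34 (0.74 ± 0.29, adjusted p = 0.394).

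**Figure D4:**
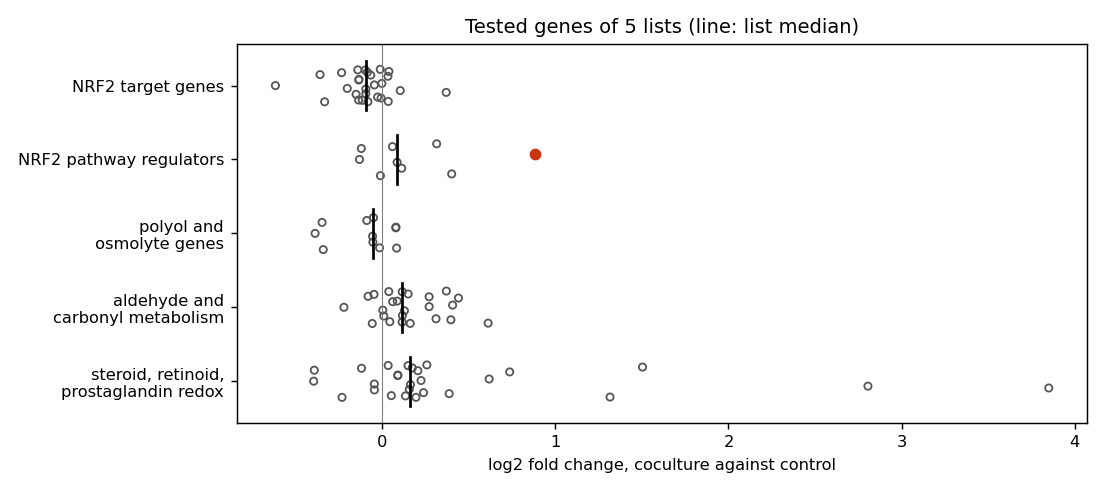
Log2 fold changes of coculture against control for the tested genes of 5 lists, with open circles for genes not called, a filled circle for the 1 called gene (MAFF, 0.88) and a line at each list's median. Medians lie between -0.10 and 0.16, and PTGES at 3.85 is the point farthest to the right.

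The genes most like AKR1B1 over the 10 libraries, out of 10353 compared, were C3, COL6A1, TFPI2, IRAK2 and NRROS, with Pearson's r of 0.993, 0.988, 0.986, 0.977 and 0.976 in log2 CPM. Without coculture 1 and 2 the values were 0.992, 0.992, 0.994, 0.971 and 0.983. Like AKR1B1, all 5 were lowest in coculture 3 among the coculture libraries and above every control in each coculture library. As they were picked for their likeness to AKR1B1 in these libraries, the shared pattern follows from the choice. C3, the central complement component, went from 9.33 ± 4.45 to 119 ± 59.7 CPM, with 37.7 CPM in coculture 3 and 217 in coculture 1. COL6A1, a chain of collagen VI, went from 248 ± 31.4 to 605 ± 102, and TFPI2, a secreted inhibitor of serine proteases, from 23.0 ± 2.66 to 48.2 ± 8.33. IRAK2, a kinase of interleukin 1 and Toll-like receptor signalling, went from 23.2 ± 2.18 to 59.9 ± 10.3, and NRROS, which binds latent TGF-beta, from 18.8 ± 1.86 to 32.9 ± 5.28. The r of each pair holds the difference between the groups, which all 6 genes share, as well as the order within them.

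**Figure D5:**
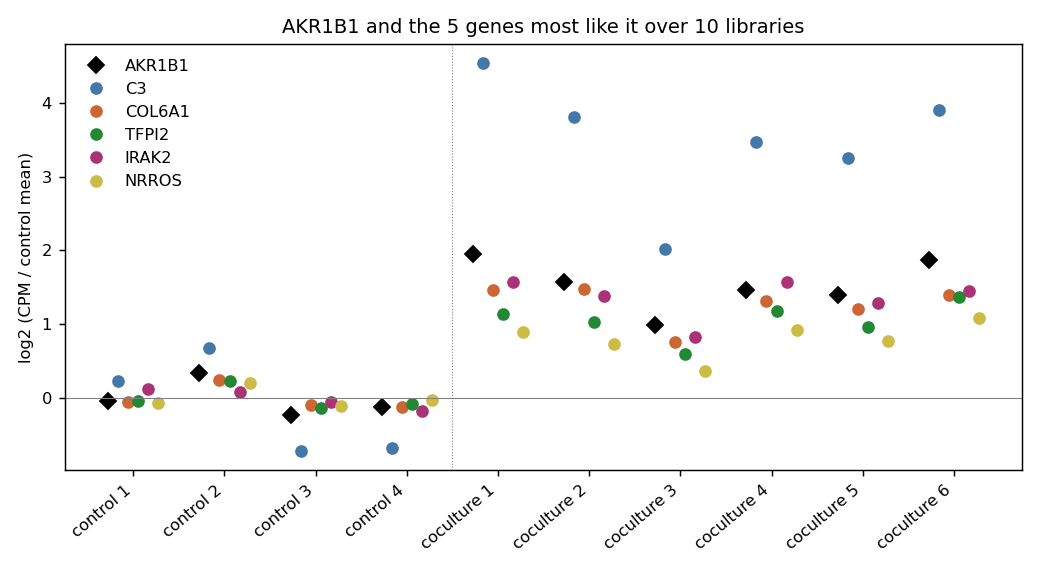
Log2 of CPM over the control mean in each library (horizontal axis, libraries in no order) for AKR1B1 (black diamonds) and the 5 genes most like it (circles). All 6 genes are lowest in coculture 3 among coculture libraries, as the 5 were picked for likeness to AKR1B1, and C3 has the widest range.

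The summed AKR1C genes, which are AKR1C3 in nearly all their counts, had other neighbours. The 5 most like them were C11orf74 (r = 0.951), RPL26P19 (0.948), RPL26 (0.942), THNSL1 (0.935) and RPL39P3 (0.934), with values of 0.906 to 0.944 without coculture 1 and 2. RPL26 encodes a protein of the large ribosomal subunit, and RPL26P19 and RPL39P3 are ribosomal protein pseudogenes whose counts may hold reads of their parent genes. C11orf74, whose product is linked to intraflagellar transport, was at 9.73 CPM in coculture 2 and 4.96 in coculture 6, the highest and the lowest of the 10 libraries, as for AKR1C3. RPL26 was at 572 CPM in coculture and 548 in controls.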

How the data were processed

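RNA-seq libraries of TPC-1 cells, 6 after coculture and 4 untreated, were grouped by their titles. The authors deposited raw read counts per gene symbol, with transcript lengths in bases as another column. HISAT2 2.0.4, BWA and GRCh38.p10 are named in the submitters' processing notes, with no role assigned. The counting tool, the annotation, the use of strand and the treatment of reads that fit several genes are not given in sources used here, so counts of close paralogs, antisense and overlapping genes are uncertain. The number of value columns left unused in the gene table was 0. The miRNA table was not used.

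Counts were fitted in R 4.3.3 with edgeR 4.0.16 (TMM normalization, filterByExpr, robust glmQLFit, glmQLFTest), and p-values were adjusted by Benjamini-Hochberg over the 15629 genes tested, at a threshold of 0.05. CPM values use TMM library sizes, and standard errors are the log2 fold change over the root of its F statistic. Likeness is Pearson's r of log2 CPM (prior count 2). Sequences are RefSeq promoter windows of GRCh38.p14, found for 6 of the 7 genes. The planned comparison of protein sequences was not made, as no protein sequence was used here. Alternatives were DESeq2 1.42.0, its size factors in edgeR, no filter, a replicate block, each library left out, and coculture 1 and 2 left out. On simulated counts of 15434 genes, 60% of genes changed 1.5-fold and 82% of those changed 2-fold were recovered, and 8 of 15429 unchanged genes were called. The simulated counts were drawn independently for each library, without the differences that set coculture 1 and 2 apart. These figures may therefore not hold for the real libraries.

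The members and the gene lists were chosen with earlier results of these data known. All members were named, with up to 4 tested genes of each list of enzymes and regulators by smallest adjusted p, and the 5 genes most like AKR1B1 and most like the summed AKR1C genes among those with a mean of at least 5 CPM. SORD, NFE2L2, SLC6A12, the markers named, the genes beside AKR1B1, and the CCAAT and TATTTAA motifs were added after the data were seen. Totals ran from 40237801 to 48197608 counts, and the floor, 3 counts in a library, was worth 0.0632 to 0.0758 CPM, a limit for counting error only.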

Additional observations from a re-analysis of the deposited data

Results flagged for a closer look

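In AKR1B10, control 2 stood apart from the other controls, at 4.70 CPM, with the others between 3.40 and 3.50 CPM. The gap took 0.919 of the range of the 4 controls, over the critical value of Dixon's test. In all, 16 groups were examined in this way, and chance alone sets about 1 in 20 apart. Control 2 was also the highest control for AKR1B1, at 839 CPM.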

How the results depend on the processing

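Over 15 alternative settings the log2 fold change of AKR1B1 ran from 1.45 to 1.70, a description, since the gene had been selected on this difference, and the other 5 tested members were past the threshold in none. Over all genes, 178 were higher and 29 lower with edgeR, 333 and 106 with DESeq2, 112 to 204 and 4 to 36 on leaving out 1 library (112 higher and 4 lower without control 4), and 112 lower without coculture 1 and 2. Calls among the 9 NRF2 regulators were 2 with DESeq2 (MAFF and MAFK) and 2 without coculture 1 and 2 (MAFF and SQSTM1). Calls among the steroid, retinoid and prostaglandin enzymes were 3 with DESeq2 (HSD11B1, DHRS9 and PTGES), 1 without coculture 1 and 2 (PTGES), and 0 to 1 on leaving out 1 library (PTGES without coculture 3). The fold changes of 2 members, smaller than their errors, crossed 0, and the cause was not tested. AKR7A2 was at -0.037 without coculture 1 and 2 and -0.012 to 0.099 on leaving out 1 library, and AKR1C3 was at -0.21 to 0.0036. With the replicate block, 100 genes were higher and 10 lower, 3 steroid, retinoid and prostaglandin enzymes were called (HSD11B1, DHRS3 and PTGES, with adjusted p of 0.0324, 0.00902 and 0.00902), and AKR1C3 was at 0.082. The deviations of same-numbered libraries had r of 0.35, -0.08, 0.20 and 0.14, and 2 of 4 coculture libraries were closest to the control of their own number, so the numbers were not taken to pair the libraries, and a shared batch was not tested. DESeq2 size factors moved the fold change by a median of -0.0050. Depth limits AKR1C1 and AKR1C2, which had at most 33 and 17 counts.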
